A study of Mus musculus with 8 samples.

Results

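Gene expression with high-dose rosemary extract (RE) was compared with that on plain water in mice that both underwent the tail suspension test (TST), which suspends a mouse by the tail and scores how long it stays immobile as a measure of despair-like behaviour. The comparison used 4 of the 8 arrays of the series, the 2 titled with 100 mg/kg and TST and the 2 titled with water and TST, and was read across 19505 named genes of a table of 22206 rows, with 1 row per gene, the one with the highest mean over the 8 arrays. All mice were males of the outbred ICR stock, bought at 8 weeks of age and kept for 1 week before the start, with 7 mice assigned to each group. RE was dissolved in the drinking water and given for 7 days, and the water group drank water alone. The 4 other arrays, 2 of water without TST and 2 of 10 mg/kg RE with TST, entered the estimate of the spread and are quoted beside single genes. The titles and the treatment protocol give the high dose as 100 mg/kg and a source field gives 50 mg/kg, so it is called the high dose here. Another field names water with TST the negative control and water without TST the positive control. One field gives the tissue as limbic system and another as hippocampus. Whether each RNA sample is 1 mouse or a pool is not stated in the labels, and p-values thus reflect the spread between samples that may be technical.

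Rosemary leaf is rich in phenolic diterpenes such as carnosic acid and in rosmarinic acid, and carnosic acid is known to switch on antioxidant enzymes through the transcription factor Nrf2. Brain tissue meets a stressor such as suspension with several layers of transcription. Immediate early genes are switched on in neurons within minutes of firing, glucocorticoid target genes follow the rise of corticosterone, and heat shock genes, which encode chaperones that hold and refold other proteins, are switched on by the factor HSF1.

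The genes past the study's threshold that kept at least 2 in 3 of their difference against 1 of the water arrays, replicate 1, included inducible chaperones, the activity gene Fos and the peptide precursor Cartpt on the higher side, and the reductase Cyb5r3, the kinase adaptor Tab1 and the thioesterase Ppt2 on the lower side. The chaperones Hspa1a, Hspa1b and Dnajb1 were 1.41, 1.275 and 1.31 log2 units higher with the high dose (SE 0.359, 0.310 and 0.290, 2 arrays against 2). Cyb5r3 was lower, with a difference of -1.35 (SE 0.274). The threshold was applied to limma p-values, where the submitters' design text names a one-way analysis of variance. None of these differences passed a correction for the number of genes tested. Most of the 24 largest differences named below were in other genes, and 19 of the 24 shrank by more than 1 in 3 when 1 water array was left out.

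The arrays differed in their content of cerebellar transcripts, and the water group held the extremes. Gabra6, a GABA-A receptor subunit that marks granule cells of the cerebellum, read 5.40 and 16.37 on water with TST replicates 1 and 2, and 7.64 and 5.14 on the high-dose arrays. Cbln1, a synaptic organizer secreted by granule cells, read 9.64 and 16.44 on the water arrays and 10.12 and 9.77 on the high-dose arrays. Water with TST replicate 2 was thus the array with the highest values of both genes, and the second highest was water without TST replicate 1, at 14.31 and 14.47. Forebrain markers ran the other way on that array. Tbr1, a transcription factor of cortical glutamatergic neurons, read 13.65 and 9.25 on the water arrays and 13.21 and 13.37 with the high dose. Nrgn, a calmodulin-binding protein of forebrain neurons, read 15.37 and 10.54 on water against 14.46 and 15.02. Both high-dose arrays and water replicate 1 thus had high values of forebrain markers, while water replicate 2 had lower values of them and high values of cerebellar ones. Its correlation with the other arrays over all rows was 0.967 to 0.978, where the other 7 arrays correlated at 0.983 to 0.993 among themselves. Between the water arrays 2826 rows differed by more than 1 log2 unit, and between the high-dose arrays 361. Differences below are from the mean of both water arrays, and that from water replicate 1 alone is added for the genes and lists the results turn on.

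**Figure D1:**
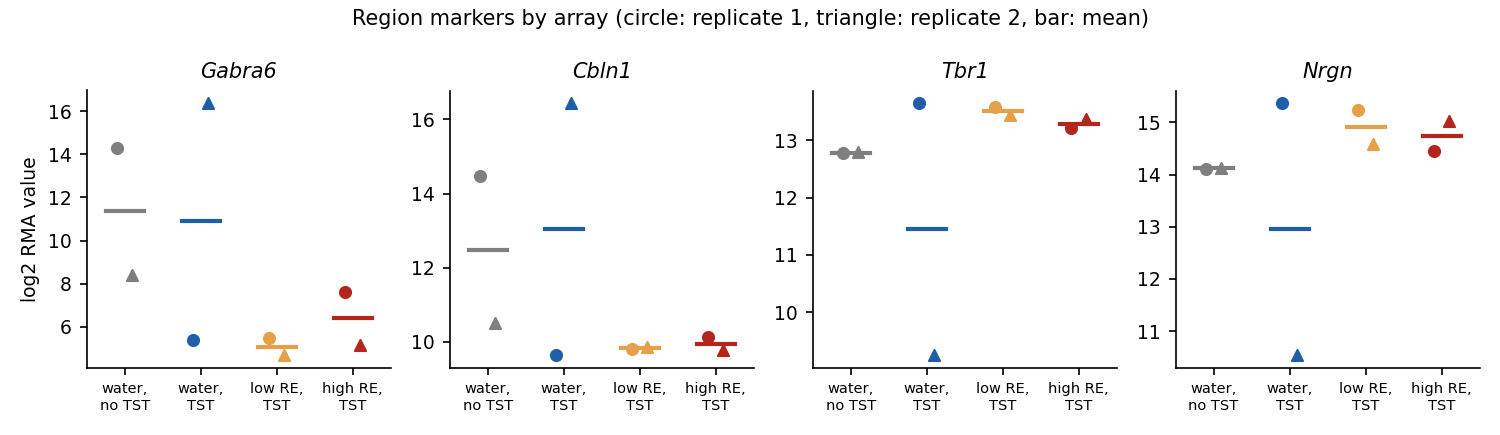
Deposited log2 values of marker genes on each of the 8 arrays, with the groups along the horizontal axis, circles for replicate 1, triangles for replicate 2 and bars for means. Gabra6 and Cbln1 reached 16.37 and 16.44 on water with TST replicate 2, the array on which Tbr1 and Nrgn had their lowest values, 9.25 and 10.54.

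No row passed an adjusted p of 0.05. The lowest adjusted p was 0.973 (limma with Benjamini-Hochberg adjustment over 22206 rows, 2 arrays per group), and 705 rows (3.17%) reached an unadjusted p under 0.05, fewer than the 1110.3 that 5% of the table makes. A one-way analysis of variance on the 4 arrays also left 0 rows after adjustment, from 847 with an unadjusted p under 0.05. The study's own threshold is a fold change above 1.2, or 0.263 in log2 units, together with an unadjusted p below 0.05. The submitters' design text names a one-way analysis of variance, whereas the p used with it here is that of limma. A gene past it below is thus not always past it by the study's test. Of 74 genes past it among those followed here, 63 were short of it in the analysis of variance on the 4 arrays. The threshold is used below to describe genes and not as evidence that any single one changed. With 2 arrays against 2 an exact two-sided permutation test cannot give a p below 0.333, so none was run for single genes.

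Past that threshold were 605 genes, 3.1% of those measured, with 297 higher (1.52%) and 308 lower (1.58%) at the high dose. In 602 of the 605 the high-dose arrays did not overlap the water arrays, which held for 5962 of all genes (30.6%). The median difference was 0.765 among the higher genes and -0.798 among the lower ones. Taken against water replicate 1 alone these medians were 0.62 and -0.56. A gene whose groups do not overlap cannot turn its sign against a single water array, so its direction there is fixed by the choice of genes. Of the 605, 405 (66.9%) kept at least 2 in 3 of their difference against water replicate 1, which is 2.08% of all genes measured. Of all genes 48.0% kept that much. A small p favours genes whose water values lie close together, and that raises the share kept. The gap between 66.9% and 48.0% is thus partly set by the choice of genes. The share kept was 219 of 297 among the higher genes and 186 of 308 among the lower ones. Of the 308 lower genes, 251 had a higher value on water replicate 2 than on replicate 1. The other cerebellum-high array was water without TST replicate 1. Of the 122 lower genes that did not keep their difference, 93 (76.2%) were also higher there than on its partner. This held for 109 of the 186 that kept it (58.6%) and for 48.9% of all genes. The higher genes showed no such gap. Of the 78 that did not keep their difference, 42 (53.8%) were lower there than on its partner. That held for 129 of the 219 that kept it (58.9%) and for 49.9% of all genes. In a fit without water replicate 2, 558 genes (2.86%) passed the threshold, 166 of them among the 605. With the mean of Gabra6 and Cbln1 on each array as a covariate, 492 genes (2.52%) passed, 252 of them among the 605. In a fit without water replicate 1, which leaves the cerebellum-high array as the only water array, 3399 passed and 434 were among the 605. Without high-dose replicate 1 or 2, 315 and 327 passed, with 161 and 166 of the 605. All but 39 of the 605 were short of the threshold in at least 1 fit that left out 1 of the 8 arrays, so which genes stood past it depended on single arrays.

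**Figure D2:**
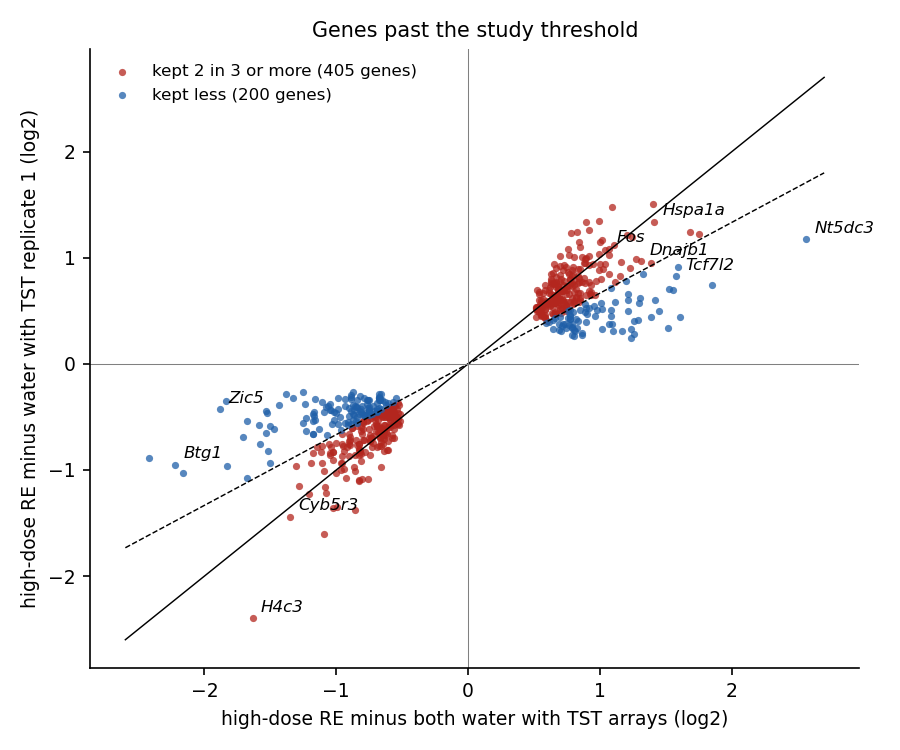
Difference of each gene past the study's threshold against both water arrays (horizontal axis, log2) and against water with TST replicate 1 alone (vertical axis, log2), with a solid line of equality and a dashed line at 2 in 3 of it. Of the 605 genes, 405 lie at or beyond the dashed line and 200 lie between it and zero.

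Heat shock genes had 5 members higher past the threshold at the high dose and 1 lower. The stretches of DNA just before their starts are shown because several of the genes were higher together and the genes differ there in a motif of the heat shock factors. HSF1 binds arrays of the short unit nGAAn in alternating orientation, and the motif searched was a pair of such units, GAANNTTC or TTCNNGAA, each of which reads the same on the other strand. A search of the 250 bases before each gene start in RefSeq's mouse promoters (GRCm38.p6) found it in 4218 of 32851 promoters (12.8%). Of the 14 heat shock genes measured, 12 had a promoter in that table and 7 of the 12 had a match in at least 1 of their promoters. That count is per gene, and some genes have several promoters, so it is not comparable with the 12.8%, which is per promoter. The 250 bases before the start are printed in the direction of transcription, with matches in capitals, for 3 genes that were higher and have a match, for Dnajb1, which was higher without one, and for Hspb8, which was lower. Hspa1a lies at chr17:34972157-34972406 on the minus strand, Hsph1 at chr5:149636337-149636586 on the minus strand, Hspb1 at chr5:135887669-135887918 on the plus strand, Dnajb1 at chr8:83607925-83608174 on the plus strand and Hspb8 at chr5:116422865-116423114 on the minus strand.
Hspa1a: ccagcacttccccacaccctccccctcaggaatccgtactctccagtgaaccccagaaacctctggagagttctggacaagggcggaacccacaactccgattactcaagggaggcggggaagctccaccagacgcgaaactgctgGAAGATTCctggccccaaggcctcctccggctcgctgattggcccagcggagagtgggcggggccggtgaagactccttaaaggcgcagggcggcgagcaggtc
Hsph1: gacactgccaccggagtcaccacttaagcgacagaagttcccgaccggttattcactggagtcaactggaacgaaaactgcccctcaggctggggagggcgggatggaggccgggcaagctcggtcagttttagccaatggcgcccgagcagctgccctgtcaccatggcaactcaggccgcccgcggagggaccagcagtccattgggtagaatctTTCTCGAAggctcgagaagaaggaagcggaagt
Hspb1: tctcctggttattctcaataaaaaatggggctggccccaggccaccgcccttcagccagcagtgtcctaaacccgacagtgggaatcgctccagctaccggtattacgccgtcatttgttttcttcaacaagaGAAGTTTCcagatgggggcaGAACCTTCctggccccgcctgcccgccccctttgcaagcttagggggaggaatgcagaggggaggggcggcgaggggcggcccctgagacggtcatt
Dnajb1: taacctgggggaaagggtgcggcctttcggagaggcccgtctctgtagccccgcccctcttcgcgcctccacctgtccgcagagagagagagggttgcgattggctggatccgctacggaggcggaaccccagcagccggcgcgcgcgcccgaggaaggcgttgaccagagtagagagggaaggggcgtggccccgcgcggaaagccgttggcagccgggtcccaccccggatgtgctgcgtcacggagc
Hspb8: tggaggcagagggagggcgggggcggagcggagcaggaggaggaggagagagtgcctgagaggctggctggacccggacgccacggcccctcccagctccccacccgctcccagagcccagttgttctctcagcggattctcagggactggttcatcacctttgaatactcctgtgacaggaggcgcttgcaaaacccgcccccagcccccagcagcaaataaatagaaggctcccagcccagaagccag
The match begins 104 bases before the start in Hspa1a and 33 bases before it in Hsph1, and Hspb1 has a pair of matches, 117 and 97 bases before its start. The Hspa1b window equals that of Hspa1a at 247 of 250 positions and holds the same match. No match was found in the windows of Dnajb1 and Hspb8, which says only that these letters are not in the window. The other measured genes with a match were Hspd1, Hspe1 and Dnajb4, which differed by 0.255, -0.05 and -0.09 at the high dose and were not past the threshold. The windows of Hspd1 and Hspe1 overlap on opposite strands and hold the same matches, so these genes do not count separately. A match is a description of the sequence, and binding was not measured.

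Of 18 listed heat shock genes 14 were measured, and 10 were higher and 4 lower at the high dose. The median difference was 0.445, where the median of all genes was 0.005 and 50.4% of all genes were higher. Against water replicate 1 alone the list's median was 0.30, and with the cerebellar covariate it was 0.262. Of all genes 1.52% were higher past the threshold, against 5 of these 14. Hspa1a, which encodes the stress-inducible HSP70, read 8.09 and 7.95 on the water arrays and 8.93 and 9.93 at the high dose. Both high-dose arrays were above both water arrays, and the difference was 1.41 (SE 0.359, unadjusted p = 0.0041, limma) and 1.34 against water replicate 1 alone. Without high-dose replicate 2 it came to 0.91. The low-dose arrays read 8.25 and 8.47, between the water and high-dose arrays. Hspa1b, a neighbouring copy of nearly identical sequence, read 8.36 and 7.79 on water and 9.02 and 9.68 at the high dose, a difference of 1.275 (SE 0.310, unadjusted p = 0.0031, limma), or 0.99 against water replicate 1. Probes for the pair may not tell them apart, so although the counts here list them as separate genes, they may be 1 measurement.

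Dnajb1, the HSP40 co-chaperone that hands substrates to HSP70, read 10.74 and 10.05 on water and 11.51 and 11.90 at the high dose, with low-dose values of 11.01 and 10.83. Every high-dose value lay above every value of the other 6 arrays, and the difference was 1.31 (SE 0.290, unadjusted p = 0.0018, limma), or 0.965 against water replicate 1. Hsph1, the HSP110 nucleotide exchange factor of HSP70, read 14.28 and 12.57 on water and 14.73 and 15.22 at the high dose. Its difference was 1.55 (SE 0.497) and 0.695 against water replicate 1, and without water replicate 2 it was not past the threshold. The small heat shock proteins Hspb1 and Hspb8, chosen after their values were seen, went opposite ways. Hspb1 read 5.04 and 5.24 on water against 5.55 and 6.50, a difference of 0.885 (SE 0.344) that came to 0.41 without high-dose replicate 2. Hspb8, which works with the co-chaperone Bag3 in clearing misfolded proteins, read 6.68 and 7.65 on water against 6.33 and 6.19, a difference of -0.905 (SE 0.333) and -0.42, no longer past the threshold, without water replicate 2. Neither was it past without high-dose replicate 1 or 2.

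The other heat shock genes were not past the threshold. The small heat shock protein Cryab differed by 0.655, the factor Hsf2 by 0.475, the HSP90 gene Hsp90aa1 by 0.415, the mitochondrial chaperonin Hspd1 by 0.255 and Bag3 by 0.195. Hspe1, the partner chaperonin of Hspd1, differed by -0.05, and Hspa4l and Dnajb4 by -0.06 and -0.09. The largest differences of the list were thus in 4 genes of the cytosolic HSP70 machinery, Hspa1a, Hspa1b, Dnajb1 and Hsph1. The list's mean, taken per array relative to each gene's mean over the 8 arrays, was -0.122 and -0.291 on the water arrays and 0.137 and 0.495 at the high dose, so high-dose replicate 2 was the highest. Without high-dose replicate 2 the 5 higher genes differed by 0.41 to 1.3 and 3 of them were past the threshold (not Hsph1 or Hspb1), and without water replicate 2 they differed by 0.695 to 1.34 with 4 past it. Genes of the unfolded protein response of the endoplasmic reticulum, another arm of protein quality control, had 12 of 17 higher, a median of 0.175 (0.065 against water replicate 1) and none past the threshold. In bulk tissue, fewer cells of a type and less RNA per cell cannot be told apart for any gene described here.

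**Figure D3:**
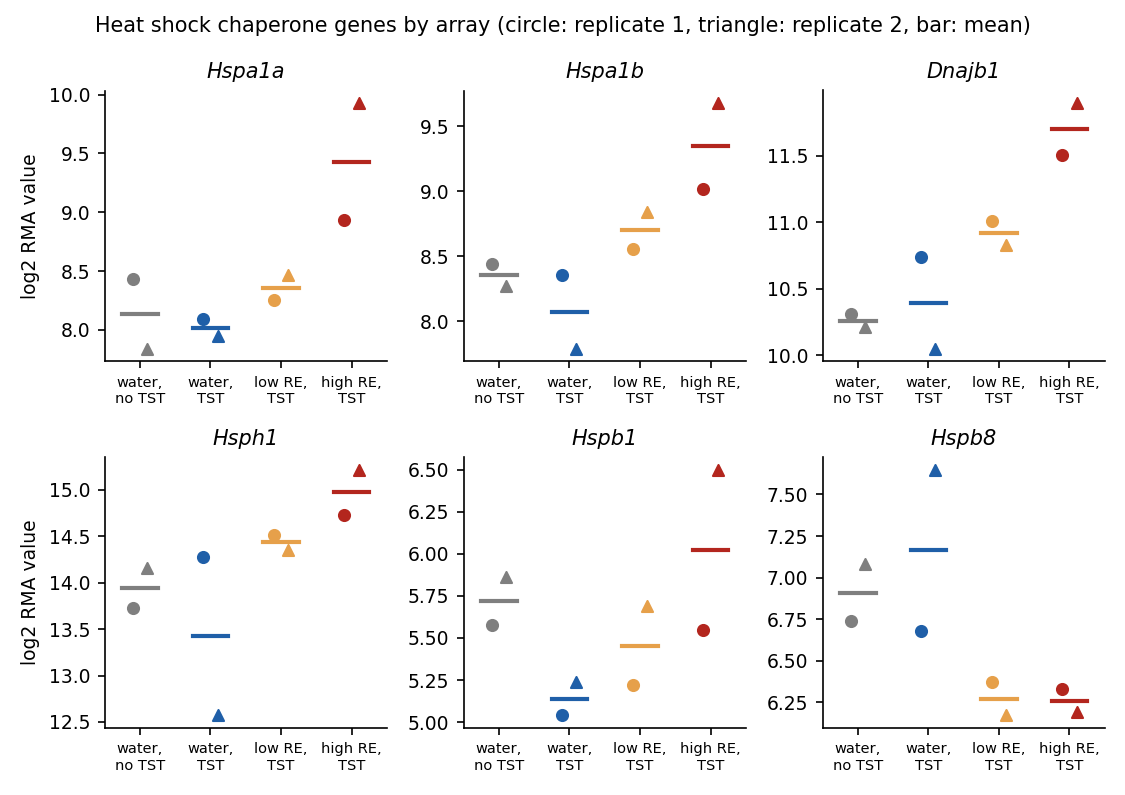
Deposited log2 values of heat shock genes on the 8 arrays, with the groups along the horizontal axis, circles for replicate 1, triangles for replicate 2 and bars for means. For Hspa1a and Dnajb1 both high-dose points lie above both water with TST points and above the low-dose points.

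Cirbp, an RNA-binding protein that is induced by mild cold, was lower. It read 11.52 and 12.19 on water with TST and 10.84 and 10.65 at the high dose, a difference of -1.11 (SE 0.384) and -0.775 against water replicate 1. The low-dose arrays read 11.65 and 10.55, so they spanned both groups, and the gene was not past the threshold without water replicate 2 or, at -1.015, without high-dose replicate 2.

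Immediate early genes had a higher median against the mean of both water arrays. Of 24 measured, 20 were higher, with a median of 0.825 and 4 past the threshold (Arc, Nr4a1, Nr4a3 and Fos), where 50.4% of all genes were higher and 1.52% were higher past it. Against water replicate 1 alone the median was 0.10. The list's mean per array was 0.278 and -0.836 on water and 0.158 and 0.632 at the high dose, so water replicate 1 lay between the high-dose arrays. Fos was the member that did not lean on water replicate 2. Fos, a subunit of the AP-1 transcription factor, read 8.02 and 8.06 on water, 8.13 and 7.93 at the low dose and 8.61 and 9.60 at the high dose. Both high-dose arrays were above all 6 others, and the difference was 1.065 (SE 0.331, unadjusted p = 0.0117, limma), or 1.085 against water replicate 1. Without high-dose replicate 2 it was 0.57 and not past the threshold.

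Arc, whose product is needed for lasting synaptic change, read 9.89 and 7.67 on water and 9.83 and 11.43 at the high dose. Its difference of 1.85 (SE 0.705) came to 0.74 against water replicate 1, and high-dose replicate 1 was below that array. The orphan nuclear receptors Nr4a1 and Nr4a3 differed by 1.30 and 1.215 (SE 0.489 and 0.411), or by 0.62 and 0.60 against water replicate 1. Without water replicate 2 only Fos of the 4 was past the threshold, and without high-dose replicate 2 none was. Egr1, a zinc finger factor induced with synaptic activity, differed by 1.78 (SE 0.778, unadjusted p = 0.0502, limma), just short of the threshold, and by 0.445 against water replicate 1. Junb and the neuronal factor Npas4 differed by 1.265 and 1.20 and were not past it, and against water replicate 1 they differed by 0.275 and -0.185. Bdnf, the activity-regulated neurotrophin, differed by 0.27 (SE 0.340), and by -0.23 against water replicate 1.

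The largest differences were taken among genes past the threshold whose groups did not overlap and whose higher group mean lay above the median of all values, without predicted loci. The 12 largest of these on the higher side ran from 1.39 to 2.56. Nt5dc3, of the 5'-nucleotidase domain family, had the largest, with 11.74 and 8.96 on water and 13.00 and 12.83 at the high dose, a difference of 2.565 (SE 0.769) and 1.175 against water replicate 1. Tmem267, a membrane protein of unknown role, read 9.08 and 8.21 on water and 9.89 and 10.76, a difference of 1.68 (SE 0.398) and 1.245 against replicate 1. Tcf7l2, the Wnt effector that marks thalamic neurons in the adult brain, read 13.87 and 12.37 on water and 14.72 and 14.68, a difference of 1.58 (SE 0.431) and 0.83 against replicate 1. In all 3 genes the high-dose arrays lay above both water arrays and water replicate 2 was the lowest of the 4.

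The others on that side were the ciliary protein Evc2, the matricellular protein Ccn1, the neuronal chromatin remodeller Chd5, the G protein regulator Rgs16, the amino acid transporter Slc38a6, the keratin Krt12, Ociad2, Hsph1 and Hspa1a. Of the 12, 4 kept 2 in 3 of their difference against water replicate 1: Tmem267, Hspa1a, Slc38a6 and Krt12. Chd5, at 10.42 and 8.07 on water and 10.79 and 10.73 at the high dose, went from 1.515 to 0.34. Without water replicate 2 the 12 genes differed by 0.34 to 1.5, and without high-dose replicate 2 by 0.725 to 2.65.

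The 12 largest by the same rule on the lower side ran from 1.48 to 2.22 in size. Btg1, an inhibitor of proliferation, read 9.75 and 12.29 on water and 8.55 and 9.05 at the high dose, a difference of -2.22 (SE 0.764) and -0.95 against water replicate 1. Bmp1, the protease that trims procollagens, read 9.47 and 11.74 on water and 8.33 and 8.56, a difference of -2.16 (SE 0.713) and -1.025 against replicate 1. Vim, the intermediate filament of astrocytes and vascular cells, read 8.80 and 10.93 against 8.35 and 8.33, a difference of -1.525 (SE 0.588) that came to -0.46. In each of these 3 genes water replicate 2 was far above replicate 1, and the high-dose arrays were also below replicate 1.

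Zic5, Tmtc2, Pkib, Cyp2d22, the focal adhesion protein Pxn, Ddah2, Tbata, the synaptic scaffold Lin7a and the histone gene H4c3 made up the rest. Of the 12, 11 were higher on water replicate 2 than on replicate 1, and all 12 were higher on water without TST replicate 1 than on its partner. Their part in the result was not tested beyond the values without those arrays. Without water replicate 2 the 12 genes differed by -2.4 to -0.43, and without high-dose replicate 1 by -2.04 to -0.97. H4c3 alone kept its difference, at 11.75 and 10.23 on water and 8.69 and 10.02 at the high dose, a difference of -1.635 (SE 0.606). Histone H4 genes share nearly the same coding sequence, so the reading of this probe set is uncertain, and without water replicate 1 or high-dose replicate 1 the difference was -0.875 and -0.97 and not past the threshold.

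Among genes that kept at least 2 in 3 of their difference against water replicate 1, had both high-dose arrays on one side of both water arrays and lay above the median level, 65 were higher and 93 lower. The 15 largest on each side were examined. On the higher side, after the chaperones and Fos, stood Cartpt, which encodes the CART peptides of feeding and reward circuits. It read 8.18 and 8.09 on water, 8.57 and 8.19 at the low dose and 9.52 and 9.23 at the high dose. The difference was 1.24 (SE 0.390, unadjusted p = 0.0124, limma) and 1.195 against water replicate 1, and 1.095 and not past the threshold without high-dose replicate 1. On water without TST it read 8.56 and 9.81, which spans the high-dose values, and the difference from that group was 0.19.

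The other genes on the higher side were Cfap206, a ciliary protein, at 7.55 and 6.89 on water against 8.47 and 8.43 (1.23, SE 0.291), and Rapgef3, the cAMP sensor Epac1, at 8.38 and 8.09 against 9.24 and 9.07 (0.92, SE 0.263). Hpgd, which inactivates prostaglandins, read 7.91 and 7.72 against 8.53 and 9.18 (1.04, SE 0.369). In all 3 the groups did not overlap, which the rule for naming these genes required. Shox2, a homeobox factor of thalamic neurons, differed by 1.11 (SE 0.441), Slc38a6 by 1.40, Krt12 by 1.385, Cyp4f37 by 0.935, Thap1 by 0.925 and Xlr3c by 0.895. Slc38a6 came to 0.725 without high-dose replicate 2. Xlr3c belongs to a family of near-identical X-linked copies and its value is uncertain. Without high-dose replicate 2 the 15 genes differed by 0.34 to 1.5 and 9 were past the threshold, and without water replicate 2 by 0.66 to 1.5, also with 9.

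On the lower side Cyb5r3, the NADH-cytochrome b5 reductase that feeds electrons to fatty acid desaturation and cholesterol synthesis, read 12.60 and 12.42 on water, 12.17 and 11.68 at the low dose and 10.97 and 11.35 at the high dose. On water without TST it read 12.43 and 12.10, so both high-dose arrays were the lowest of the 8. The difference was -1.35 (SE 0.274, unadjusted p = 0.001, limma) and -1.44 against water replicate 1. Tab1, an adaptor that activates the kinase TAK1 in inflammatory signalling, read 8.37 and 8.88 on water and 7.25 and 7.62 at the high dose, a difference of -1.19 (SE 0.278) and -0.935 against replicate 1. Its low-dose values were 8.51 and 8.28, above both high-dose values.

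Ppt2, a lysosomal thioesterase, read 8.88 and 9.56 on water and 8.03 and 8.05 at the high dose, a difference of -1.18 (SE 0.295) and -0.84 against replicate 1. Epha3, a receptor for ephrin-A ligands in axon guidance, read 9.82 and 10.54 on water and 9.11 and 8.96, a difference of -1.145 (SE 0.317), and was past the threshold in each fit that left out 1 array but not in the one without both cerebellum-high arrays. Ogn differed by -1.085, Colec12 by -1.08, Lamb1 by -1.025 and Cdh22 by -1.0. Colec12, a scavenger receptor, read 8.34 and 8.07 on water against 6.94 and 7.31. Mcu, the pore of the mitochondrial calcium uniporter, differed by -0.955 (SE 0.358), from 9.74 and 10.13 to 9.12 and 8.84, and was not past the threshold without water replicate 2 or without either high-dose array. Homez, Zscan22, Parp4 and Cep89 completed the 15, at -0.96 to -0.95 for all but Parp4, which was at -1.025. Without high-dose replicate 1 the 15 differed by -1.53 to -0.335 and 8 were past the threshold, and Colec12 and Lamb1 were short of it there and without water replicate 1.

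**Figure D4:**
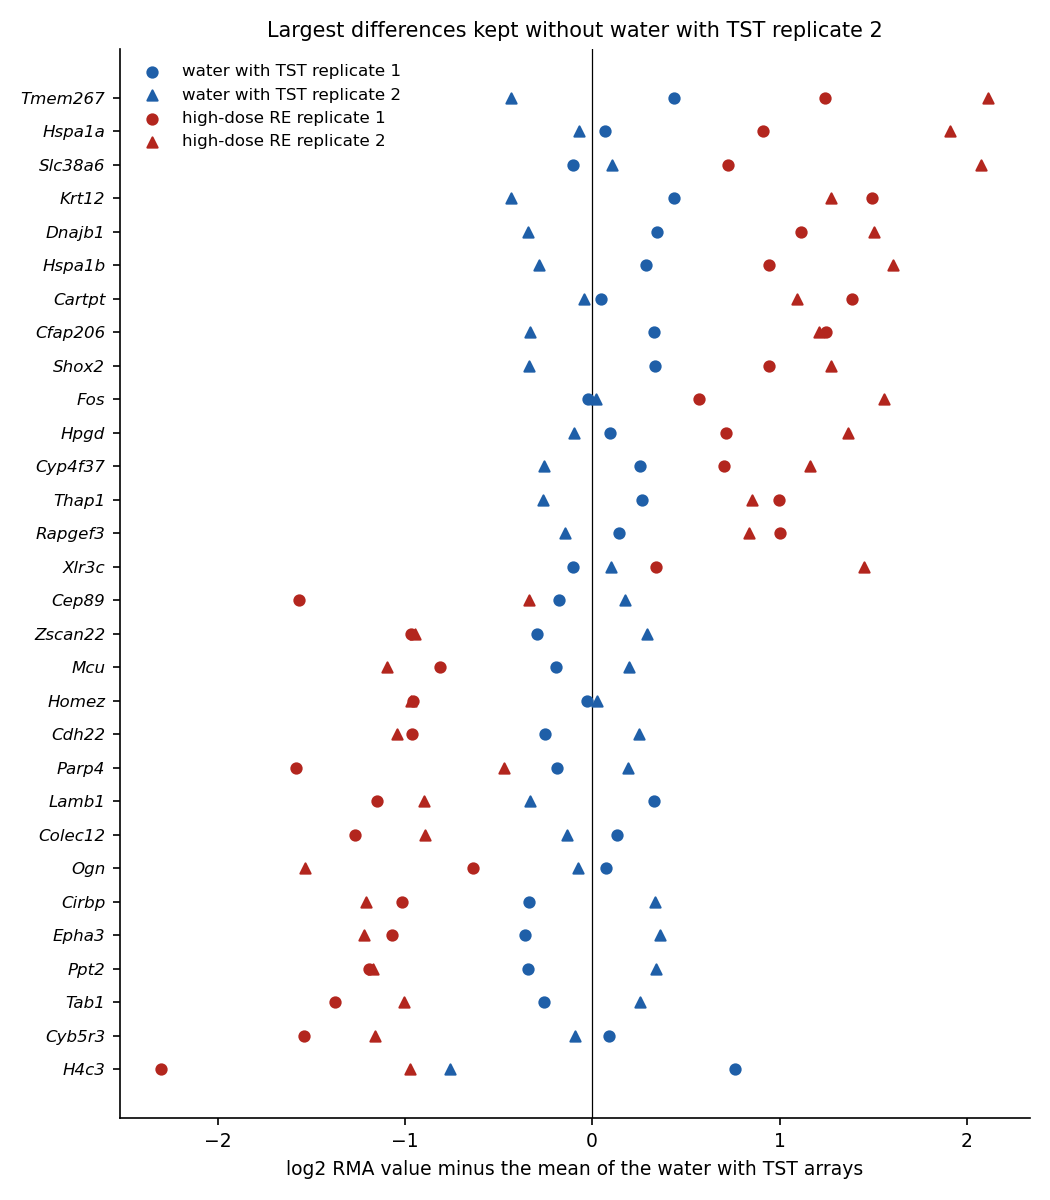
Values on the 4 arrays for the 30 genes with the largest differences among those that kept at least 2 in 3 of their difference against water with TST replicate 1, as log2 units relative to each gene's mean on the water arrays. The 15 higher genes include Hspa1a, Hspa1b, Dnajb1, Cartpt and Fos, and the 15 lower genes include Cyb5r3, Tab1 and Ppt2. In each gene both high-dose points lie on one side of both water points, which the choice of genes required.

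A stricter reading asked which genes stayed past the threshold, in the same direction, in the fit of all arrays and with any 1 of the 8 arrays left out. There were 39, which is 6.45% of the 605 and 0.2% of the genes tested, 22 higher and 17 lower. All 39 were also past it with the cerebellar covariate, and 36 without both cerebellum-high arrays. The 39 were chosen to stay past it without either of those arrays, so these counts are largely set by the choice of genes. Of the 30 genes above, 13 were among them: Tmem267, Hspa1a, Hspa1b, Dnajb1, Cfap206, Thap1 and Rapgef3 on the higher side and Cyb5r3, Tab1, Ppt2, Epha3, Cdh22 and Homez on the lower side. Of the 24 largest differences by the rule above 4 were among them, Nt5dc3, Tmem267, Tcf7l2 and Hspa1a. Fos, Cartpt and Hsph1 were not.

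Of the other members of the 39, 5 with a known role were picked after their values were seen. P4ha1, the prolyl hydroxylase of collagen chains, read 11.47 and 10.51 on water and 12.02 and 12.61 at the high dose, a difference of 1.325 (SE 0.352) that came to 0.845 without water replicate 2. Pxdn, the peroxidase that cross-links basement membrane collagen, read 8.11 and 7.27 on water against 8.75 and 9.03, a difference of 1.20 (SE 0.309) that came to 0.78 without water replicate 2. The low-dose arrays were also above water, at 12.06 and 11.89 for P4ha1 and 8.55 and 8.68 for Pxdn. Ltbr, the lymphotoxin beta receptor, read 8.74 and 8.76 on water against 8.0 and 7.85, a difference of -0.825 (SE 0.219). Gpx2, a glutathione peroxidase, and Dio3, which inactivates thyroid hormone, differed by -1.025 and -0.965 at values of 5.81 to 7.08 and 3.83 to 4.87, below the median of all values, 7.47.

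Gene lists of brain regions and cell types were read against the same 4 arrays, in which 50.4% of all genes were higher and 48.9% lower. All 13 measured markers of cerebellar granule cells were lower at the high dose, with a median of -1.82, and against water replicate 1 alone that median was 0.03. Their mean per array was -1.15 and 3.78 on water and -0.813 and -1.14 at the high dose, so water replicate 2 stood alone. Markers of Purkinje cells and Bergmann glia had 8 of 10 lower with a median of -1.75, and -0.02 against water replicate 1. Cortical markers were higher in 11 of 13 with a median of 0.735, and -0.285 against replicate 1, with array means of 0.477 and -1.52 on water and 0.048 and 0.423 at the high dose. Striatal markers (10 of 12 higher, median 0.415) and hippocampal ones (9 of 13, median 0.28) also turned, to -0.49 and -0.315. None of the cerebellar, cortical or striatal markers was past the threshold. Of the 13 hippocampal ones 2 were, Ociad2 and C1ql2, where 1.52% of all genes were higher past it. They differed by 1.385 and 0.915 (SE 0.534 and 0.289), and by 0.445 and 0.53 against water replicate 1.

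Thalamic markers had a higher median against either reading of the water group. Of 14 measured, 13 were higher with a median of 0.90, and 6 were past the threshold, where 1.52% of all genes were higher past it. Against water replicate 1 alone 11 were higher, with a median of 0.45, and with the cerebellar covariate the median was 0.61. Lef1, a Wnt pathway factor, read 7.75 and 6.63 on water and 8.22 and 8.59 at the high dose (1.215, SE 0.411), or 0.655 against replicate 1. Prkcd, a protein kinase C isoform of thalamic relay neurons, read 13.76 and 12.04 on water and 13.96 and 14.36 (1.26, SE 0.536), or 0.40 against replicate 1. The low-dose arrays were as high, at 8.88 and 8.16 for Lef1, 14.92 and 14.12 for Prkcd, 10.32 and 8.98 for Shox2 and 14.94 and 14.82 for Tcf7l2. The list's mean was -0.062 and -0.912 on water, 0.601 and 0.293 at the low dose and 0.304 and 0.352 at the high dose. Without water replicate 2 the 6 genes past the threshold differed by 0.40 to 0.83, and without high-dose replicate 2 by 0.37 to 1.6. How much thalamus each dissection held was not tested.

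**Figure D5:**
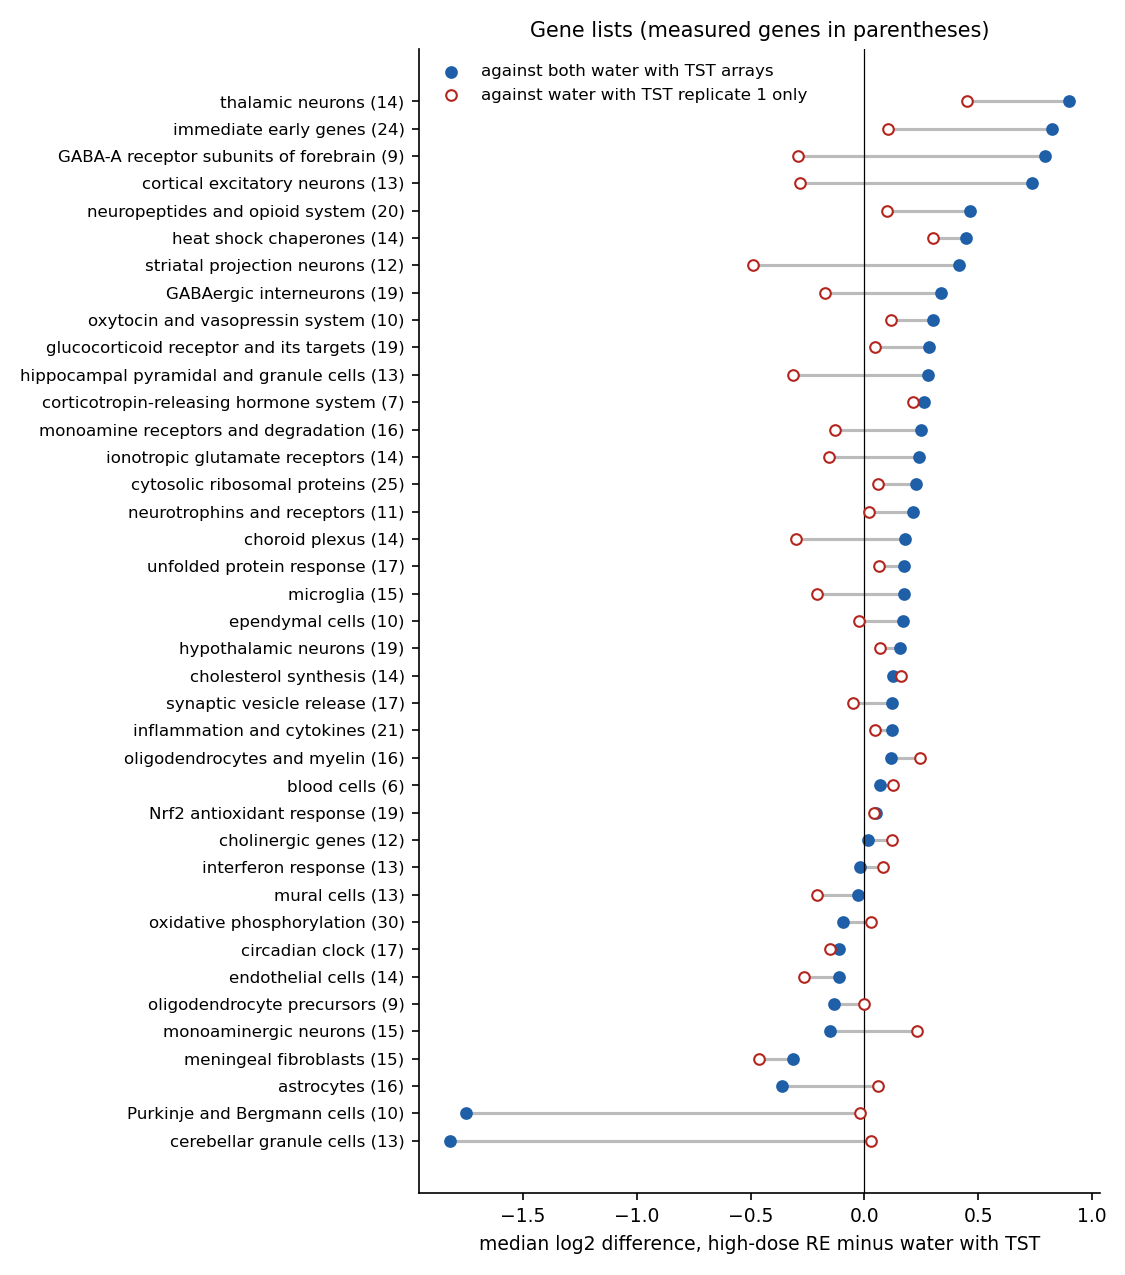
Median difference at the high dose of each gene list in log2 units, against both water with TST arrays and against water with TST replicate 1 alone. The cerebellar granule cell list moves from -1.82 to 0.03 and the cortical list from 0.735 to -0.285, while the thalamic list stays above zero at 0.90 and 0.45 and the meningeal list below it at -0.315 and -0.465.

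Of 15 meningeal fibroblast markers measured, 14 had a lower value at the high dose, with a median of -0.315, and -0.465 against water replicate 1. Past the threshold were 2 of the 15, where 1.58% of all genes were lower past it. Ogn, a proteoglycan of collagen fibrils, read 10.34 and 10.19 on water and 9.63 and 8.73 at the high dose (-1.085, SE 0.405). Dcn, another such proteoglycan, read 11.99 and 11.29 on water and 11.25 and 9.88 (-1.075, SE 0.484), and was not past the threshold. Bgn differed by -0.575 and was past it with Ogn, from 7.57 and 7.33 to 6.89 and 6.86. At the low dose Ogn read 8.89 and 9.09 and Dcn 10.58 and 10.78, within the range of the high-dose values. Neither Ogn nor Bgn was past the threshold without water replicate 1 or without high-dose replicate 2. The amount of meninges on each tissue piece was not tested.

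Glial and vascular lists lay closer to the median of all genes. Single members past the threshold are named, where 1.52% of all genes were higher past it and 1.58% lower. Astrocyte markers were lower in 12 of 16 (median -0.3625), but the median against water replicate 1 was 0.0575. Oligodendrocyte markers were higher in 11 of 16 (median 0.115, and 0.2425 against water replicate 1), and Mal, a myelin proteolipid, read 14.97 and 14.98 on water and 15.57 and 15.44 at the high dose (0.53, SE 0.222), a difference short of the threshold without any 1 of the 4 water arrays or without either high-dose array. Microglial markers had 10 of 15 higher (median 0.175), but 14 of 15 were lower against water replicate 1 (median -0.21). Endothelial markers had 10 of 14 lower (median -0.11, and -0.265 against water replicate 1). Abcb1a, the drug efflux pump of the blood-brain barrier, read 11.21 and 11.14 on water against 10.54 and 10.75 (-0.53, SE 0.229), and was short of the threshold without any 1 of the 8 arrays. The astrocyte filament gene Gfap differed by -0.155, the myelin gene Mbp by -0.105 and the microglial gene Aif1 by 1.09 (SE 0.239, 0.266 and 0.810), none past the threshold, and Aif1 by -0.18 against water replicate 1. Choroid plexus markers were higher in 11 of 14 (median 0.18), and the median was -0.30 against water replicate 1. Among them Kcne2 was past the threshold, at 7.91 and 6.54 on water and 8.17 and 8.31 at the high dose. Its difference was 1.015 (SE 0.404), and 0.33 against water replicate 1. Ttr, the thyroid hormone carrier made by that tissue, read 17.36 and 13.98 on water and 16.82 and 17.17 at the high dose, so only water replicate 2 was low.

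Genes of the Nrf2 pathway, named above for carnosic acid, lay near the median of all genes. Of 19 Nrf2 targets and partners measured, 12 were higher and 7 lower, with a median of 0.05 and none past the threshold. Hmox1, which degrades heme, read 6.27 and 6.72 on water and 6.25 and 6.42 at the high dose (-0.16, SE 0.244). Nqo1, a quinone reductase, read 7.47 and 6.59 against 6.92 and 6.09 (-0.525, SE 0.497). The groups overlapped for both. Txnrd1, the thioredoxin reductase, differed by 0.49 and the glutathione transferase Gstm1 by -0.515.

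Cholesterol synthesis genes had 9 of 14 higher with a median of 0.125, and 2 were past the threshold, where 1.52% of all genes were higher past it. Hmgcs1, which makes HMG-CoA for the pathway, read 15.21 and 15.22 on water and 15.61 and 15.85 at the high dose (0.515, SE 0.220). Cyp51, the lanosterol demethylase, read 11.87 and 11.82 against 12.86 and 12.16 (0.665, SE 0.279). The arrays of the groups did not overlap for either gene, and the differences were 0.52 and 0.64 against water replicate 1. Neither was past the threshold without high-dose replicate 1 or without any 1 of the 4 water arrays, and Cyp51 came to 0.315 without high-dose replicate 1. On water without TST Cyp51 read 12.39 and 12.55, between the high-dose values.

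Stress hormone genes showed 1 difference past the threshold, where 1.52% of all genes were higher past it. Among 19 genes listed for the glucocorticoid receptor and its targets, 13 were higher with a median of 0.285, and 0.045 against water replicate 1. Sgk1, a kinase induced by corticosterone, read 11.31 and 10.05 on water, 10.60 and 10.65 at the low dose and 11.71 and 11.81 at the high dose. Both high-dose arrays were the highest of the 8, with a difference of 1.08 (SE 0.383) and 0.45 against water replicate 1. With water replicate 2 or any 1 of the high-dose arrays left out it was short of the threshold. The glucocorticoid receptor Nr3c1 differed by 0.39 (SE 0.290) and its co-chaperone Fkbp5 by 0.53 (SE 0.515), neither past the threshold, and by 0.12 and -0.365 against water replicate 1. Crh, the hypothalamic releasing hormone, read 6.90 and 6.88 on water and 6.98 and 6.85 at the high dose, a difference of 0.025. Its receptor Crhr1 differed by -1.095 (SE 0.583), from 9.29 and 11.04 to 8.95 and 9.19, and by -0.22 against replicate 1.

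Few peptide and monoamine genes were past the threshold, where 1.52% of all genes were higher past it and 1.58% lower. Neuropeptide genes were higher in 17 of 20 (median 0.4625, and 0.0975 against water replicate 1), and Cartpt was the member past the threshold. Oxt, the oxytocin gene, read 6.49 and 7.27 on water and 6.74 and 6.24 at the high dose (-0.39, SE 0.422). Avp, the vasopressin gene, differed by -0.905 (SE 0.892) and the oxytocin receptor Oxtr by 0.25 (SE 0.374), and by 0.05 and -0.095 against water replicate 1. Hypothalamic markers had 12 of 19 higher with a median of 0.155, and 0.07 against water replicate 1. Cartpt and the homeobox gene Six3 were past the threshold, and Six3 went from 0.905 to 0.47, short of it, without water replicate 2. Pmch, which encodes melanin-concentrating hormone of the lateral hypothalamus, read 8.92 and 6.93 on water and 10.32 and 9.78 at the high dose, yet 6.80 and 11.81 on water without TST, and its difference of 2.125 (SE 1.35), or 1.13 against water replicate 1, was not past the threshold. Markers of monoaminergic neurons had 10 of 15 lower (median -0.15), but 12 of 15 were higher against water replicate 1 (median 0.23). Slc6a3, the dopamine transporter, read 5.86 and 6.27 on water and 8.58 and 6.12 at the high dose, so its difference of 1.285 (SE 0.696) rested on high-dose replicate 1, the array on which Th, the rate-limiting enzyme of dopamine synthesis, was also high (8.38 against 7.09 on its partner). Tph2 and Slc6a4, the serotonin enzyme and transporter, differed by -0.43 and -1.505, and Maoa by -0.68, none past the threshold, and by 0.23, -0.18 and -0.245 against water replicate 1.

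The high dose was also set directly against the low dose. The difference itself does not use the water arrays, but its SE and p-value do, through the spread of all 8 arrays. There 365 genes were past the threshold (1.87%), 179 higher and 186 lower, and 0 rows passed adjustment (limma, lowest adjusted p 1, with 425 rows at an unadjusted p under 0.05). Of the 30 genes that kept their difference, 9 were past the threshold in the same direction, Hspa1a, Dnajb1, Cartpt and Fos on the higher side and Cyb5r3, Tab1, Ppt2, Colec12 and Cep89 on the lower side. The differences between doses were 1.07 for Hspa1a, 0.785 for Dnajb1, 0.995 for Cartpt, 1.075 for Fos, -0.765 for Cyb5r3 and -0.96 for Tab1 (unadjusted p = 0.0169, 0.0258, 0.033, 0.0111, 0.0227 and 0.0081, limma). Sgk1 was 1.135 higher than at the low dose (unadjusted p = 0.0174, limma). Both comparisons use the high-dose arrays, so they are not independent. For Tcf7l2, Lef1 and Shox2 the doses differed by less than their SE, while the low dose against water was 1.76, 1.33 and 1.245. The low dose against water had 677 genes past the threshold (3.47%) and the high dose against water without TST had 376 (1.93%), with 0 rows adjusted in both (limma, with 787 and 437 rows at an unadjusted p under 0.05).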

How the data were processed

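RNA was measured on Clariom S mouse arrays, 1 per sample, in 4 groups of 2 taken from the sample titles. Per the submitters' design text, the authors normalized the arrays with the robust multichip average in Transcriptome Analysis Console 4.0.1, and the deposited values are log2 and were used as deposited. They run from 2.76 to 19.79, and 1359 exceed 16, the limit of a 16-bit scanner, so a log2 difference is one on the deposited scale. Array medians were 7.45 to 7.51. Precision is limited by the number of arrays. The platform annotation named 19572 rows with 1 gene and 2634 with none, and all 19572 matched the gene table by identifier. The sources used here give no genome build for the platform, and coordinates are those of RefSeq's promoter table.

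Group means were fitted to all 8 arrays in limma 3.58.1 (R 4.3.3, 4 residual degrees of freedom, prior 4.30, median SE of a difference 0.292), with two-sided tests adjusted over all rows. The script was tested on simulated data. Tables used Python 3.11.15 with pandas 2.3.3. Genes were named by rule: up to 12 per direction by size among genes past the threshold whose groups did not overlap and whose higher group mean was above the median of all values; up to 15 per direction that also kept 2 in 3 of the difference; 24 chosen genes; and up to 4 per list of 39 lists. The members and lists were chosen with earlier results of these data known. Alternatives were a replicate block, the 4 arrays alone, a trended robust prior, no dim rows, quantile normalization, each array left out, analysis of variance, array weights, a cerebellar covariate and both cerebellum-high arrays left out. The replicate numbers did not pair the samples.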

Additional observations from a re-analysis of the deposited data

How the results depend on the processing

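Across the fits that left out 1 array, rows at an adjusted p under 0.05 ranged from 0 to 928, the highest without water with TST replicate 1; rows past the study's threshold from 354 to 3785; higher genes from 162 to 1734; lower genes from 146 to 1665; and genes that kept at least 2 in 3 of their difference from 263 to 506. The kept count was 252 with array weights. These came out equal for the 2 arrays of each group, so they could not lower the part of water with TST replicate 2 alone. Lower genes past the threshold were 190 with the cerebellar covariate and 183 without both cerebellum-high arrays. The replicate block left 632 rows past the threshold, with 294 higher genes, 252 lower and 355 kept, and 0 rows adjusted; the deviations of same-numbered high-dose and water samples correlated at -0.0915, so the numbers were not taken as pairs. The kept count was not computed for fits without either water with TST array, without both cerebellum-high arrays, with quantile normalization or with the covariate. Other settings gave 494 rows (4 arrays), 690 (trended robust prior), 516 (dimmest 25% left out), 828 (quantile) and 649 (analysis of variance).

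Of 119 genes followed, 74 of them past the threshold, 20 turned their sign somewhere. Lowest and highest values over the fits that left out 1 array were -9.98 and 0.99 for Gabra6, -6.495 and 0.305 for Cbln1, -7.15 and 0.43 for Pcp2, -0.36 and 4.04 for Tbr1, -0.63 and 4.20 for Nrgn, -0.365 and 3.015 for Ttr, -0.18 and 2.36 for Aif1, -0.325 and 0.115 for Mbp, -0.34 and 0.03 for Gfap, -1.86 and 0.05 for Avp, -0.095 and 0.595 for Oxtr, -0.04 and 0.09 for Crh, -0.365 and 1.425 for Fkbp5, -0.23 and 0.77 for Bdnf, -0.185 and 2.585 for Npas4, -1.09 and 0.23 for Tph2, -0.385 and 0.065 for Hmox1, -0.32 and 0.22 for Hspe1, -0.335 and 0.215 for Hspa4l and -0.35 and 0.17 for Dnajb4. With the covariate Gabra6 was at 0.199, Oxtr at -0.137, Crh at -0.112, Fkbp5 at -0.055, Hmox1 at 0.002 and Hspa4l at 0.215. Without both cerebellum-high arrays 17 genes turned, at the values without water replicate 2, among them Mbp at 0.09 and Hspe1 at 0.21. Of the 74 genes, 43 were short of the threshold without water replicate 2, 35 and 40 without high-dose replicates 1 and 2, 27 with the covariate and 63 in the analysis of variance. The cause was not tested. Depth does not apply to arrays, and dim genes such as Dio3 and Hspb1 rest on values below the median.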

Other observations

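Several lists that bear on metabolism and defence were read on the same arrays. Ribosomal protein genes were higher at the high dose in 22 of 25, with a median of 0.225, and 0.06 against water with TST replicate 1 alone. Genes of oxidative phosphorylation were lower in 20 of 30 with a median of -0.0925, and 0.0275 against that array. Inflammation genes were higher in 16 of 21 (median 0.12, and 0.045 against water replicate 1) and interferon-response genes in 6 of 13 (median -0.02, and 0.08), and none was past the study's threshold. GABA-A receptor subunit genes were higher in 6 of 9 with a median of 0.795, and -0.29 against water replicate 1.

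Single members past the study's threshold are named here, where 1.52% of all genes were higher past it and 1.58% lower. Circadian genes were higher in 7 of 17 with a median of -0.11, and -0.15 against water replicate 1. Cry1, a repressor of the clock, was the member past the threshold, at 8.58 and 9.70 on water with TST and 8.21 and 8.29 at the high dose, a difference of -0.89 (SE 0.355) and -0.33 against water replicate 1. Among 12 cholinergic genes Chrna4, a nicotinic receptor subunit, was past it, at 12.42 and 10.66 on water and 13.05 and 12.61 at the high dose, a difference of 1.29 (SE 0.508). The low-dose arrays read 12.89 and 12.77, and without water replicate 2 the difference was 0.41. Neither Cry1 nor Chrna4 was past the threshold without water replicate 2 or without either high-dose array.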
